A study of Mus musculus with 3 samples.

Results

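Cyclic AMP is made by adenylyl cyclases, broken down by phosphodiesterases, and read by protein kinase A (PKA), which anchoring proteins hold at particular places in the cell. The mouse genes of this machinery were described in PTH-treated osteocytic cells. Members were chosen by name: symbols that begin with Adcy or Akap and a digit, with Prkar, Prkaca or Prkacb, and symbols made of Pde, a number and a letter from a to d. The rule gave 54 of the 25410 symbols in the files: 10 cyclases, 22 phosphodiesterases, 6 PKA subunits and 16 anchoring proteins.

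The samples were 3 ribosome-depleted RNA-seq libraries of IDG-SW3 cells, all at day 35 of differentiation and all given 100 nM parathyroid hormone (PTH) for 24 h. IDG-SW3 is a mouse line with osteocyte features that grows with interferon-gamma at a lowered temperature and differentiates at body temperature without it. The series' design text calls the replicates biological, and it places the vehicle-treated libraries in another series, which was not analysed here. The 3 libraries therefore form 1 group, and no value below is an effect of PTH. They held 35195518, 37299517 and 45240005 counts in replicates 1, 2 and 3. Of the 10 osteoblast and osteocyte markers listed, 6 were above the level used here as threshold, among them Col1a2 at 2946 RPKM and Phex at 9.05 RPKM. The later osteocyte markers Dmp1, Mepe, Fgf23 and Sost were unresolved against that threshold of 1 RPKM. Dmp1 had 0.792, 1.12 and 0.0480 RPKM in replicates 1, 2 and 3, so replicate 3 stood far below the others, while Mepe averaged 0.436 RPKM, Fgf23 0.267 RPKM and Sost 0.00917 RPKM. Of 4 markers each of other cell types, none was above the threshold for skeletal muscle or for macrophages and osteoclasts, 1 for cartilage (Comp, 49.9 RPKM) and 1 for endothelium (Kdr, 2.62 RPKM), with sums of 0.233 to 0.758, 0.330 to 1.55, 40.0 to 61.2 and 2.86 to 3.27 RPKM. Acp5 and Pecam1, which have several rows, were at 0. In such bulk libraries, fewer cells expressing a gene and less RNA per cell cannot be told apart.

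The PTH receptor couples to the stimulatory G protein, which activates the membrane cyclases. Cyclic AMP binds the regulatory subunits of PKA and frees the catalytic subunits, which phosphorylate targets that include the transcription factor CREB. CREB binds the cyclic AMP response element in promoters. Phosphodiesterases end the signal, and the anchoring proteins place PKA, and often a phosphodiesterase, beside chosen targets. In bone, this pathway carries much of the response of osteoblasts and osteocytes to PTH.

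Since the response element closes the loop from PKA back to transcription, promoter windows of the members were searched for it. RefSeq windows of build GRCm38.p6, from 250 bases before to 50 bases after a start site, were found for 45 members, in 91 windows that can overlap. The full element, TGACGTCA, lay in 2 member windows (2.20%), against 1.79% of all 32851 windows, and both belonged to Prkar1a. A shorter form, TGACG or its other strand CGTCA, which the full element also contains, lay in 19 member windows (20.9%), against 20.8% of all windows. Counted by gene, 16 of 45 members (35.6%) held the shorter form in at least 1 window, against 23.1% of all genes with a window; genes differ in their number of windows. Among PKA subunits, 7 of 19 windows (36.8%) and 5 of 6 genes (83.3%) held it, and Prkar2b had none. Prkar1a was also the most abundant PKA subunit. Prkar2b, at 14.7 RPKM, held no match, while Prkacb, at 0.716 RPKM, held the shorter form. Whether the element goes with level was not tested. Adcy6, Akap12 and Pde3b had no window, and the windows of Pde7b and Pde4d held no match. The pieces of PKA subunits nearest to a start site are shown. Each piece runs 5′ to 3′ on the strand of the gene and has the element in capitals. It ends no later than the start site or the element.
Prkar1a, chr11:109650870-109650937, + strand: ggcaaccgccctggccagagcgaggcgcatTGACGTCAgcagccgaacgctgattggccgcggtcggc
Prkar1b, chr5:139150016-139150080, - strand: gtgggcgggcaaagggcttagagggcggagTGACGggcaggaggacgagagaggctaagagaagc
Prkar2a, chr9:108692109-108692143, + strand: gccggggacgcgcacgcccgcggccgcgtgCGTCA
Prkaca, chr8:83972942-83972977, + strand: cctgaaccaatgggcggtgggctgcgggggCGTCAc
Prkacb, chr3:146813014-146813078, - strand: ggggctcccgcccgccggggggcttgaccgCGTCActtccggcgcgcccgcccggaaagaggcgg
The element of Prkar1a began 49 bases upstream of its start site. The shorter forms began 49 bases upstream in Prkar1b, 4 in Prkar2a, 6 in Prkaca and 102 in Prkacb. A match is a description of letters and not a measured binding site.

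Levels are given as RPKM, the counts per kilobase of transcript and per 1000000 counts of the library, with mean ± SD over the 3 libraries (n = 3). Each gene was tested against 1 RPKM with edgeR's quasi-likelihood test, adjusted by Benjamini-Hochberg over all 21012 symbols tested. Of the 54 members, 24 were above 1 RPKM, 17 were below it, 8 were unresolved and 5 had no count in any library. The 24 made up 49.0% of the 49 members tested, where 43.2% of all symbols tested were above. The 17 made up 34.7%, where 13.4% of all symbols tested were below. The counts expected at 1 RPKM grow with transcript length, and these shares were not matched for length. Adcy1, at 0.220 RPKM over 12259 bases, was called below, while Akap14, at 0.228 RPKM over 1792 bases, was unresolved. The calls below 1 RPKM rest on few counts and on the tool. Their number dropped to 8 without replicate 1 and to 5 without replicate 2. It was 1 with DESeq2 run on the same expected counts, a call that shares no gene with the 17. With limma on log2(RPKM + 0.1) it was 24, which included all 17. A second DESeq2 run, with the expected counts centred within each gene, also gave 24, again with all 17 among them. It was added after the outcome of the first had been seen. The calls above 1 RPKM numbered 22 with the first DESeq2 run, 24 with the second and 24 with limma.

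Symbols with several rows in the files were more often at 0 than symbols with 1 row, and whether counting or the genes themselves differ was not tested. Among all symbols with a length, 31.6% of those with several rows had no count in any library, against 5.04% of those with 1 row. Of the members, 39 had 1 row and 15 had several, and 32 of the 49 rows of those 15 were at 0 in all libraries. Among members with 1 row, 23 were above 1 RPKM (59.0%, against 45.4% of all such symbols) and 12 were below (30.8%, against 12.6%). Among the 10 tested members with several rows, only Pde4b was above, where 25.0% of all such symbols were above, and 5 were below, where 20.2% were. All 5 members at 0, which were Pde2a, Pde6c, Pde9a, Akap2 and Akap4, had several rows, so their zeros are not read as absence. A count of 0 allows up to 3 counts, or between 0.00936 RPKM for Akap2 in replicate 3 and 0.0474 RPKM for Pde9a in replicate 1. The plot of the level of each member shows how far the abundant members of each group stood from the rest.

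**Figure D1:**
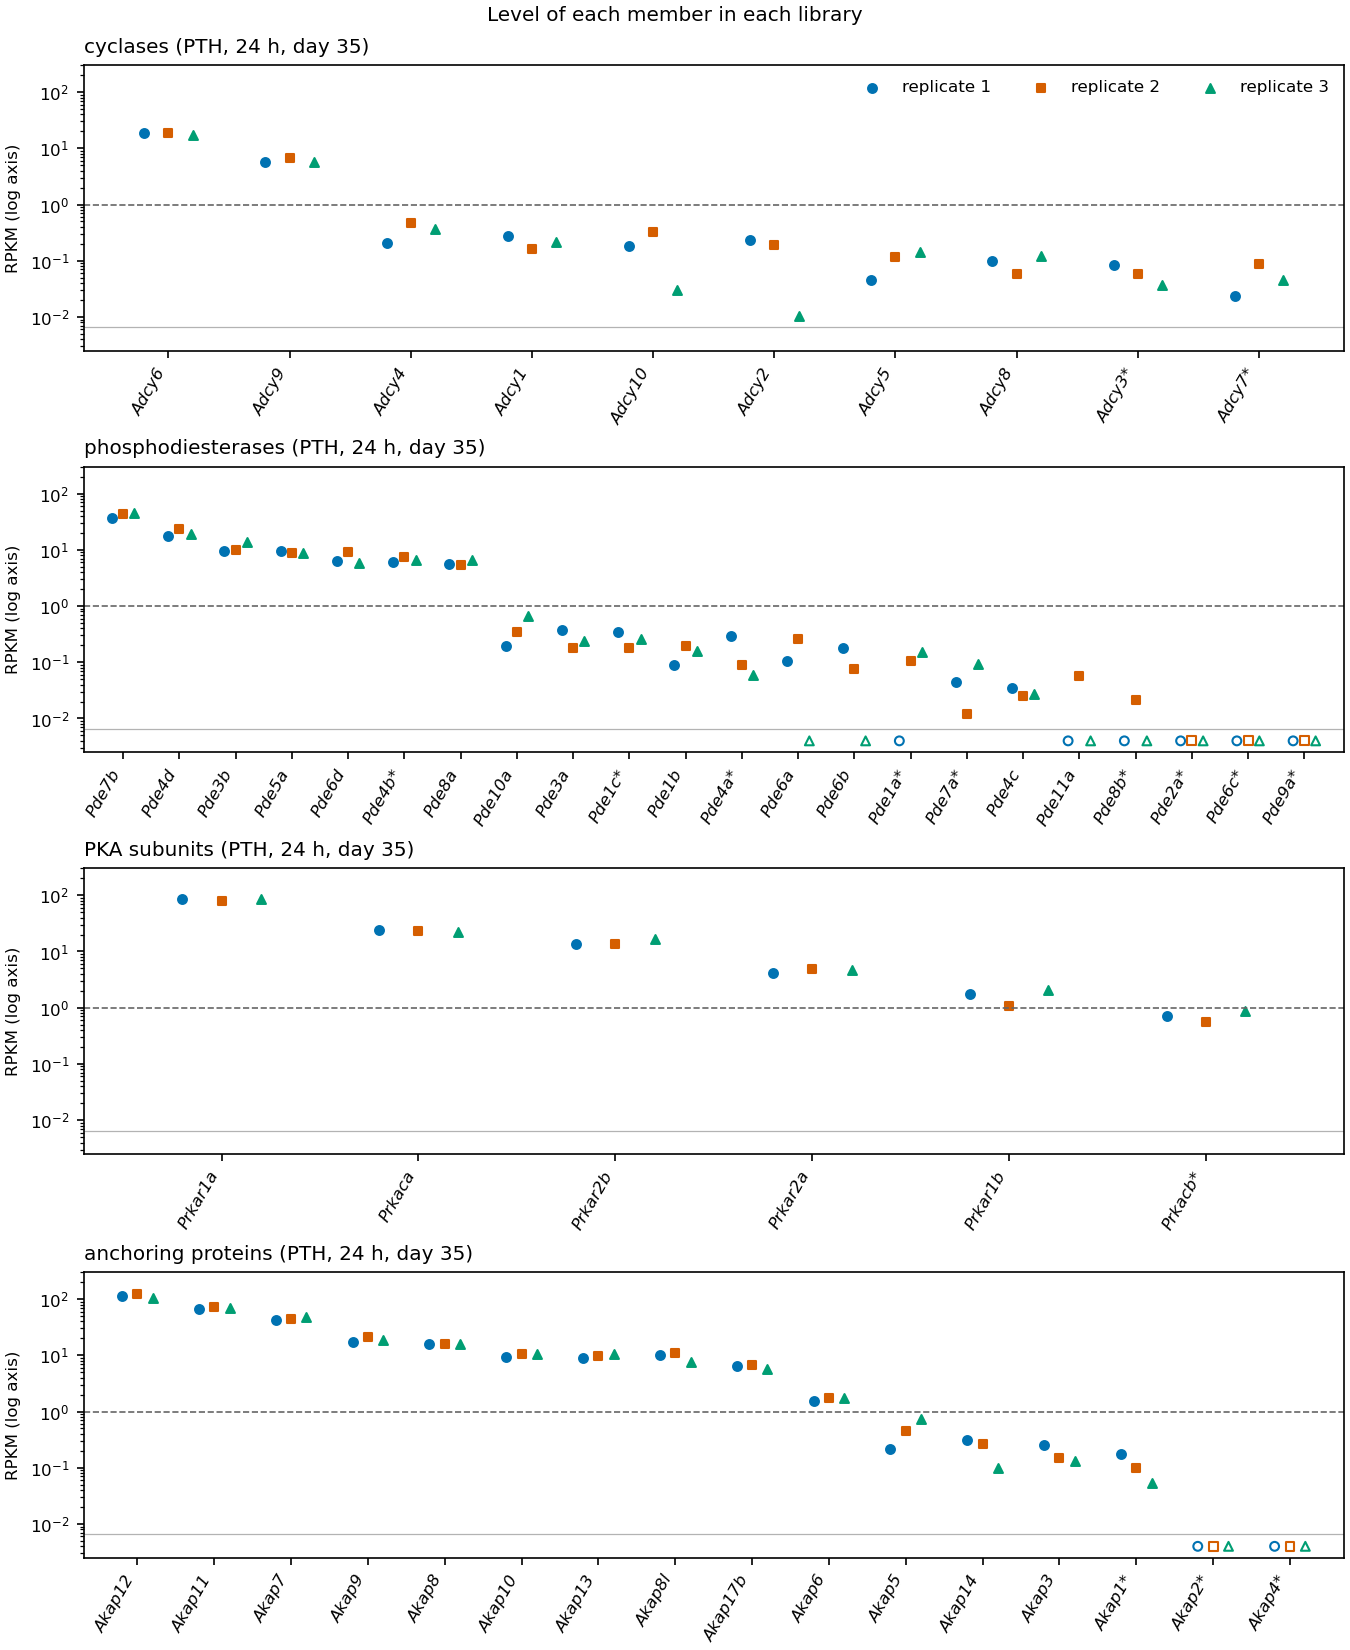
Level of every member in each of the 3 PTH-treated libraries, in RPKM on a log axis, with 1 panel for each group and members in order of mean level. The dashed line marks 1 RPKM, an asterisk marks a member with several rows, and open symbols under the grey line mark libraries with no count. Cyclases and phosphodiesterases show a gap between Adcy9 at 6.03 RPKM and Adcy4 at 0.346 RPKM, and between Pde8a at 5.80 RPKM and Pde10a at 0.407 RPKM.

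Among the cyclases, Adcy6 and Adcy9 carried nearly all of the signal. Adcy6, a membrane cyclase that calcium inhibits, had 19.0, 18.7 and 16.9 RPKM in replicates 1, 2 and 3 (18.2 ± 1.12). Adcy9, a membrane cyclase that responds poorly to forskolin, had 5.70, 6.61 and 5.79 RPKM (6.03 ± 0.501). Adcy6 held 71.6% ± 1.80 and Adcy9 23.7% ± 1.44 of the summed RPKM of the 10 cyclases, which was 25.4 ± 1.60. The fold of Adcy6 over Adcy9 was 3.33, 2.83 and 2.92 in the 3 libraries, with a mean log2 ratio of 1.59 ± 0.12. Both were above 1 RPKM, and all 8 other cyclases were below it in the edgeR fit. Of the 10 cyclases, 20.0% were thus above and 80.0% below, against 43.2% and 13.4% of all symbols tested.

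Of those 8, Adcy4, a calcium-insensitive cyclase, had 25, 60 and 58 counts, or 0.205, 0.463 and 0.369 RPKM. Adcy1, which calcium and calmodulin stimulate and which is best known from neurons, had 120, 75 and 120 counts, or 0.278, 0.164 and 0.216 RPKM. Adcy10, the soluble cyclase that bicarbonate activates, had 34, 64 and 7 counts, or 0.186, 0.330 and 0.0298 RPKM. Replicate 3 thus stood lowest for Adcy10 but not for Adcy4 or Adcy1. Adcy2, Adcy5 and Adcy8 averaged between 0.0924 and 0.144 RPKM. Of these, Adcy2 was also lowest in replicate 3, with 34, 30 and 2 counts, while Adcy5 and Adcy8 were highest there. Adcy3, known from olfactory neurons, has 3 rows and had 14, 10 and 8 counts, while Adcy7, with 4 rows, had 5, 19 and 12 counts. From Adcy4 down, no neighbours in the order of levels differed beyond their spread, which here means 3 log2 ratios of 1 sign with a mean over 2 SD. Neighbours in the order of the 8 low cyclases are therefore not resolved, and members further apart in that order were not compared.

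The phosphodiesterases were spread over more members. Their summed level was 104 ± 8.65 RPKM, of which Pde7b held 40.9% ± 1.45 and Pde4d 19.3% ± 1.71. The 8 genes for cyclic AMP-specific enzymes together held 72.6% ± 0.975, the 8 for enzymes that hydrolyse both cyclic nucleotides 11.7% ± 2.02, and the 5 for cyclic GMP-specific enzymes 8.96% ± 1.30. Pde6d, which matched the rule by name but is no enzyme, held 6.77% ± 1.49 and is counted in the sum and among the 22 genes. Of the 22 phosphodiesterase genes, 7 were above 1 RPKM, 6 below, 6 unresolved and 3 at 0. Of the 19 tested, 36.8% were above and 31.6% below, against 43.2% and 13.4% of all symbols tested.

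Pde7b, a cyclic AMP-specific enzyme that the inhibitor rolipram does not block, had 37.3, 44.1 and 46.1 RPKM (42.5 ± 4.63). Pde4d, a rolipram-sensitive cyclic AMP-specific enzyme, had 17.7, 23.1 and 19.3 RPKM (20.1 ± 2.76). Pde7b was higher than Pde4d in each library, by 2.10, 1.91 and 2.38 fold. Its level depends on the transcript length used: the median of 1681 bases gives 42.5 RPKM, and the longest transcript, of 4137 bases, gives 17.3 RPKM. Pde4d stood at 10.7 RPKM by its longest transcript, so Pde7b stayed the higher of this pair there.

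A close set followed. Pde3b, which hydrolyses cyclic AMP, is inhibited by cyclic GMP and is best known from adipocytes, had 9.60, 9.76 and 13.6 RPKM (10.98 ± 2.25). Pde5a, the cyclic GMP-specific enzyme that sildenafil inhibits, had 9.53, 8.76 and 8.78 RPKM (9.02 ± 0.436). Pde6d, which despite its name is no enzyme but a carrier of prenylated proteins, had 6.30, 9.05 and 5.75 RPKM (7.03 ± 1.77). Libraries of Pde5a and Pde6d overlapped in level, while the lowest library of Pde3b lay just above the highest of Pde5a. Pde4b, a further rolipram-sensitive enzyme, was the one member with several rows above the threshold. It had 6.197, 7.52 and 6.72 RPKM over 5 rows (6.82 ± 0.669), and 1 of its rows held 93.8% of its counts. With the mean over rows in place of the sum, that call was lost. Pde8a, a high-affinity cyclic AMP-specific enzyme, had 5.55, 5.30 and 6.54 RPKM (5.80 ± 0.651). From Pde3b down to Pde8a, none of the 4 neighbouring pairs differed beyond its spread with the median lengths. The place of Pde4b among them is not fixed: it stood at 20.1 RPKM by its shortest transcript and at 3.85 RPKM by its longest. The log2 ratio of Pde6d over Pde4b was -1.32 with the shortest transcripts and 2.26 with the mean over rows, and that of Pde4b over Pde8a was 1.78 and -2.01 under the same choices.

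Between members of 1 family, the levels were far apart. Pde3a, the cardiac and vascular relative of Pde3b, had 163, 84 and 131 counts, or 0.377, 0.183 and 0.235 RPKM. Pde3b was 25.5, 53.3 and 57.7 times as high in the 3 libraries. Pde3b was highest in replicate 3, as was the adipocyte marker list, which summed to 9.40, 9.98 and 16.5 RPKM. Of its 4 markers, Fabp4 at 9.73 RPKM and Adipoq at 1.88 RPKM were above the threshold, Lep was below it, and Plin1, which has several rows, was at 0. The part of such cells in the Pde3b level was not tested.

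Pde10a, a dual-specificity enzyme best known from the striatum, had 24, 45 and 106 counts, or 0.197, 0.348 and 0.675 RPKM. Pde1b and Pde1c, which calcium and calmodulin activate, had 0.0878, 0.199 and 0.157 RPKM, and 0.346, 0.179 and 0.263 RPKM. All 106 counts of Pde1c lay on 1 of its 8 rows. Pde4a, on 2 rows, had 30, 10 and 8 counts. Pde6a, a subunit of the rod photoreceptor enzyme, had 17, 45 and 0 counts, and its libraries differ by more than counting error. The exact Poisson 95% interval was 32.8 to 60.2 counts in replicate 2, and in replicate 3 it ran from 0 to 3.69 counts. The unresolved members were Pde6b, Pde1a, Pde7a, Pde4c, Pde11a and Pde8b, with means from 0.00710 to 0.0865 RPKM. From Pde10a down, no neighbours differed beyond their spread with the median lengths.

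Transcripts of PKA were dominated by 1 regulatory subunit. Prkar1a, the type I alpha regulatory subunit, had 86.8, 80.0 and 86.1 RPKM (84.3 ± 3.73), or 65.2% ± 0.623 of the summed RPKM of the 6 subunits. Prkaca, the alpha catalytic subunit, had 24.5, 23.1 and 22.5 RPKM (23.3 ± 1.02). Prkar2b, the type II beta regulatory subunit, had 13.8, 13.7 and 16.6 RPKM (14.7 ± 1.62). These 3 genes kept the same order in each library, with no overlap between them.

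Prkar2a, the type II alpha regulatory subunit, had 4.12, 4.87 and 4.71 RPKM (4.57 ± 0.394). Prkar1b, the type I beta regulatory subunit, which is best known from brain, had 161, 106 and 243 counts, or 1.74, 1.08 and 2.05 RPKM (1.62 ± 0.493). Its call above 1 RPKM, at an adjusted p of 0.00304 by edgeR, was lost without replicate 3. It was also lost with the first DESeq2 run, but not with the second. Prkacb, the beta catalytic subunit, had 0.719, 0.552 and 0.877 RPKM over 4 rows (0.716 ± 0.163) and was unresolved, with an adjusted p of 0.139 by edgeR. Of its 345 counts, 74.8% lay on 1 row, and its low level is read with the limit on symbols of several rows. With the median lengths, all 5 neighbouring pairs of PKA subunits differed beyond their spread. With the shortest transcripts, the log2 ratio of Prkaca over Prkar2b was 0.15, against 0.67 ± 0.20 with the median.

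The regulatory subunits together had 106, 99.7 and 109 RPKM, against 25.2, 23.6 and 23.4 RPKM for the catalytic subunits. The mean log2 ratio was 2.13 ± 0.09, a fold of 4.37, with 4.23, 4.22 and 4.68 in the 3 libraries. It depends on length, and the mean log2 ratio was 3.42 with the shortest transcripts and 2.34 with the longest. An exact sign-flip permutation test over 3 libraries gives p = 0.25, the smallest it can give. Leaving out Prkacb and its several rows, the fold over Prkaca alone was 4.51. Of the regulatory RPKM, Prkar1a held 80.2% ± 1.43, Prkar2b 13.96% ± 1.11, Prkar2a 4.35% ± 0.509 and Prkar1b 1.53% ± 0.403. Type I subunits were 4.94, 4.36 and 4.14 times as high as type II subunits. These are ratios of transcripts per length, and protein was not measured.

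**Figure D2:**
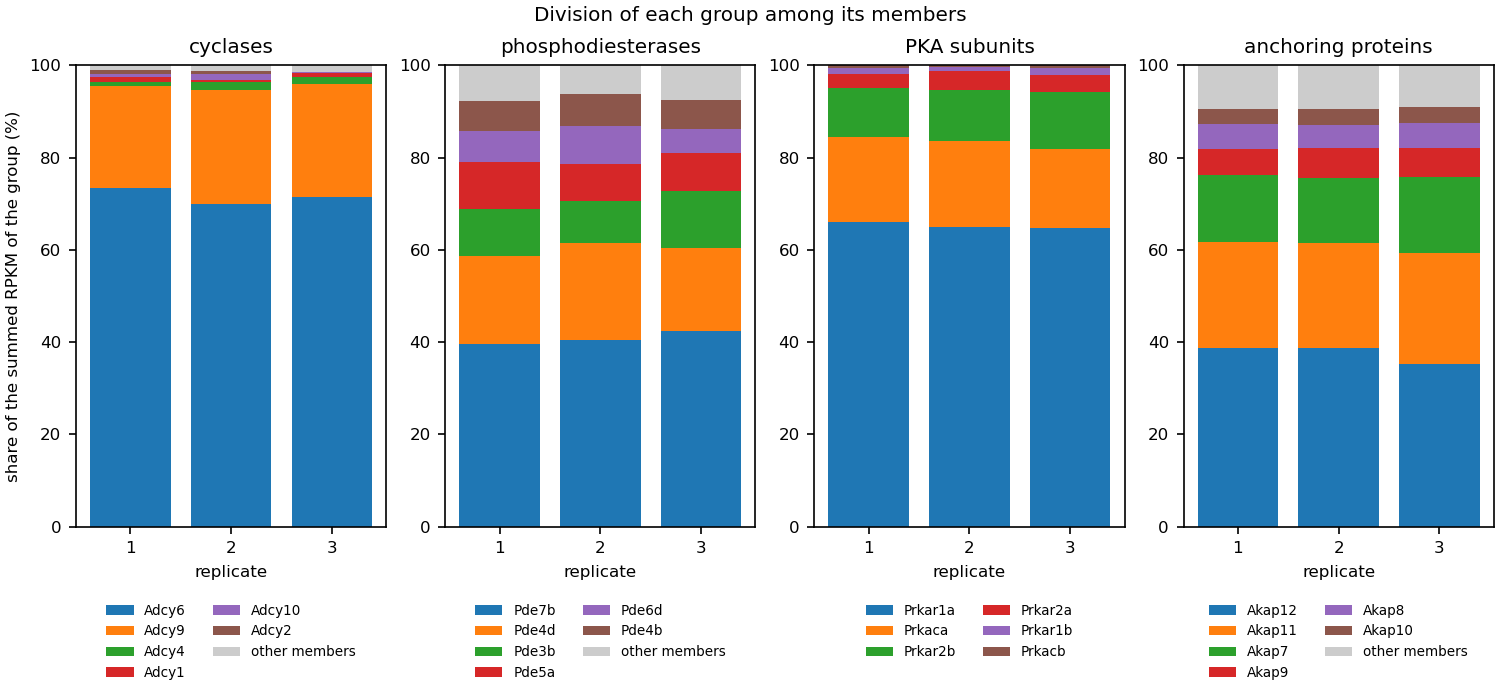
Division of the summed RPKM of each group among its members, in percent, with 1 bar for each of the 3 PTH-treated libraries. The highest member held 71.6% of the cyclases (Adcy6), 40.9% of the phosphodiesterases (Pde7b), 65.2% of the PKA subunits (Prkar1a) and 37.6% of the anchoring proteins (Akap12), averaged over the libraries.

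The anchoring proteins had the highest summed level of the 4 groups, 302 ± 12.5 RPKM, and 10 of 16 were above 1 RPKM. The 10 made up 71.4% of the 14 tested, against 43.2% of all symbols tested. Akap12, also called gravin, which holds PKA and receptor-associated enzymes at the plasma membrane, had 114.9, 122.6 and 103.8 RPKM (114 ± 9.45), or 37.6% ± 2.01 of the group. Akap11, which also binds the kinase GSK3 and protein phosphatase 1, had 67.8, 72.6 and 70.8 RPKM (70.4 ± 2.41). Akap7, a small anchor at membranes and ion channels, had 42.9, 44.0 and 48.2 RPKM (45.0 ± 2.80). The ranges of these 3 genes did not overlap, and each neighbouring pair differed beyond its spread. Akap12, Akap7 and Akap5, classed here by gene as anchors of the plasma membrane, together held 52.7% ± 0.735 of the group. Transcript forms of a gene were not told apart.

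The next 5 anchors averaged between 9.53 and 18.9 RPKM. Akap9, which places PKA at the Golgi and the centrosome, had 17.1, 20.9 and 18.8 RPKM (18.9 ± 1.89). Akap8, an anchor of the nuclear matrix and chromatin, had 15.9, 16.1 and 16.0 RPKM (16.0 ± 0.103), the smallest relative spread of the 24 members with a mean of at least 1 RPKM. Its relative Akap8l had 10.3, 10.8 and 7.45 RPKM (9.53 ± 1.82), so replicate 3 stood apart for 1 of this pair. Akap10, an anchor of mitochondria and endosomes that binds both types of regulatory subunit, had 9.39, 10.7 and 10.4 RPKM (10.2 ± 0.689). Akap13 had 9.001, 9.78 and 10.4 RPKM (9.74 ± 0.719). With the median lengths, Akap10, Akap13 and Akap8l did not differ beyond their spread, and neither did Akap9 and Akap8. The log2 ratio of Akap10 over Akap13 was 0.81 with the shortest transcripts.

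The other mitochondrial anchor, Akap1, has 2 rows and had 23, 14 and 9 counts, or 0.176, 0.101 and 0.0535 RPKM. All its counts lay on 1 row. Akap17b and Akap6, an anchor of the nuclear envelope known from muscle, were above the threshold at 6.26 and 1.70 RPKM. The call of Akap6 was lost with its longest transcript. It was also lost with the first DESeq2 run, but not with the second. Akap5, a membrane anchor best known from neurons, was singled out after its values were seen because its libraries differ: it had 51, 113 and 222 counts, or 0.217, 0.453 and 0.734 RPKM. It was below 1 RPKM at an adjusted p of 0.00111 by edgeR, also without any 1 of the libraries. With the first DESeq2 run it was not below, but with the second it was. By its shortest transcript, of 2711 bases in place of 6685, it stood at 1.15 RPKM and was not below. The sperm flagellum anchors Akap3, Akap4 and Akap14 summed to 0.571, 0.420 and 0.230 RPKM. The 4 sperm markers, none of them above the threshold and Tnp2 at 0, summed to 2.09, 1.46 and 0.674 RPKM, and their part in those levels was not tested.

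Transcript length shapes the order of the high members. The plot of levels under 3 lengths shows Prkar1a at 294 RPKM by its shortest transcript, of 962 bases, and at 80.6 RPKM by its longest. Akap7 stood at 103 RPKM by its shortest transcript and at 40.6 RPKM by its longest, and with the shortest transcripts it passed Akap11, at 93.1 RPKM. Akap12, Akap13 and Pde5a moved little. Akap8, Akap9 and Pde3b have the same shortest, median and longest length, so their levels could not move. With the longest transcripts, Pde4d at 10.7 RPKM no longer stood above Pde3b at 10.98 RPKM.

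**Figure D3:**
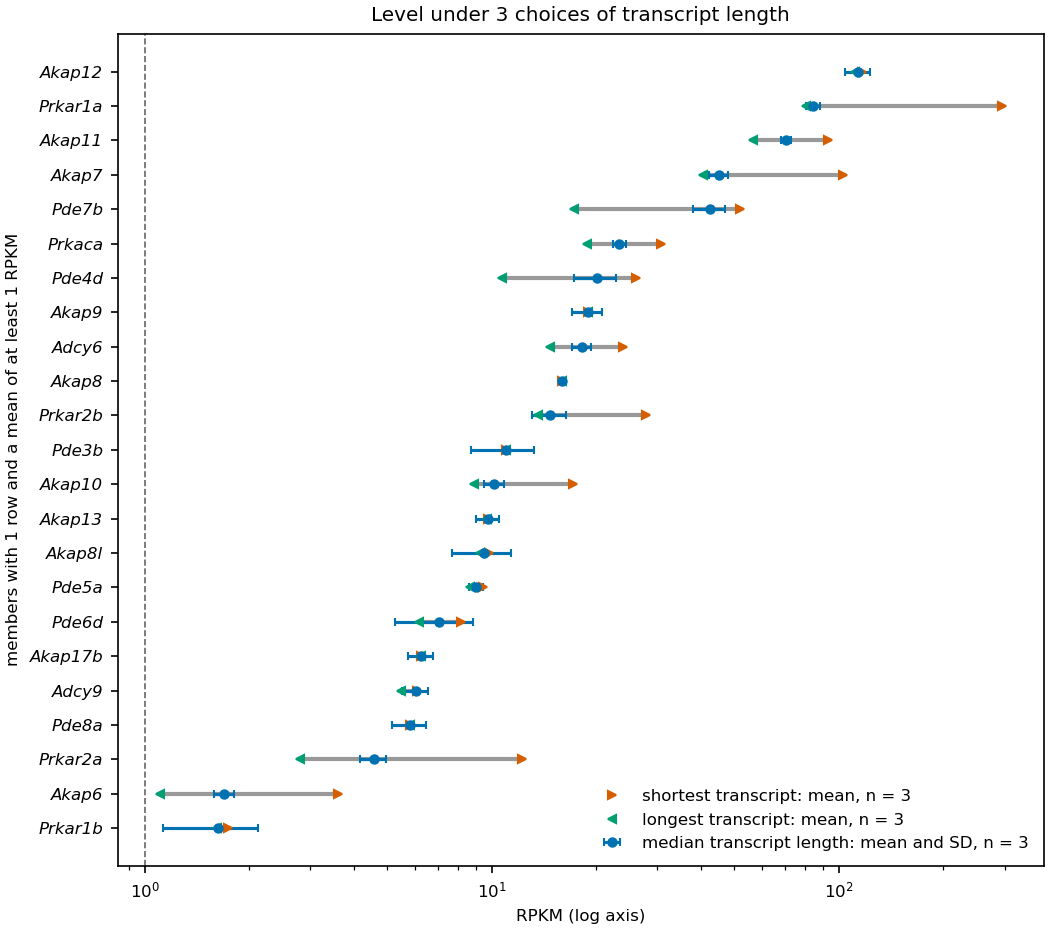
Level of the 23 members with 1 row and a mean of at least 1 RPKM under 3 choices of transcript length, in RPKM on a log axis. Circles with bars give the mean and SD over 3 libraries with the median transcript length, and triangles give the mean with the shortest and the longest transcript. Prkar1a spans 80.6 to 294 RPKM, while Akap12 spans 111 to 116 RPKM.

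Of the 54 members, 24 had a mean of at least 1 RPKM. The median SD of their log2(RPKM + 0.1) over the libraries was 0.12, where it was 0.17 for all 9883 symbols with such a mean. Members and all symbols were not matched for counts, and counting error is larger where counts are few. The members that varied most were Prkar1b at 0.45, Pde6d at 0.34, Akap8l at 0.29, Pde3b at 0.28 and Pde4d at 0.19. Pde6d and Pde4d were highest in replicate 2, Prkar1b and Pde3b were highest in replicate 3, and Akap8l was lowest there. Prkar1a, at 0.07, and Akap11, at 0.05, were among the steadiest.

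**Figure D4:**
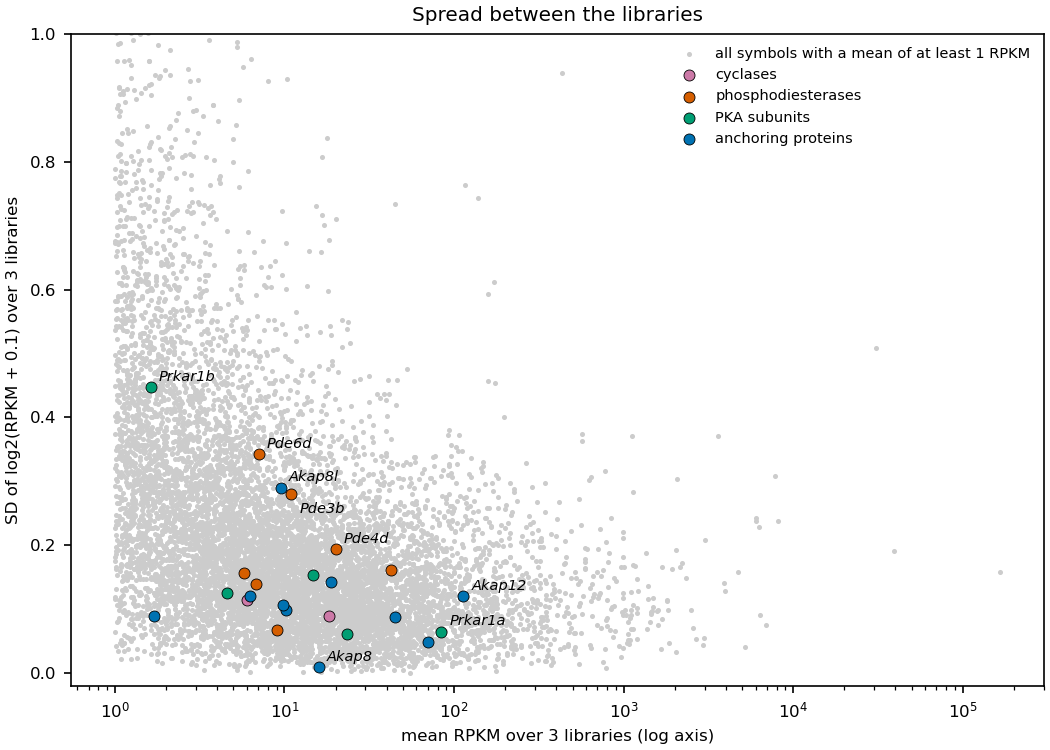
Spread between the 3 PTH-treated libraries, as the SD of log2(RPKM + 0.1), against mean RPKM on a log axis, for all 9883 symbols with a mean of at least 1 RPKM (grey) and the 24 members among them (coloured by group). The SD axis ends at 1, and 111 symbols lie above it; Prkar1b, at 0.45, is the highest member and Akap8, at 0.01, the lowest.

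Other genes of the pathway were read from the same fit, in which 43.2% of all symbols tested were above 1 RPKM and 13.4% below. Of the 3 PKA inhibitor genes, Pkia was above 1 RPKM, with 2.02, 3.27 and 3.68 RPKM, while Pkig on 5 rows was unresolved and Pkib on 6 rows was at 0. Cyclic AMP also acts through EPAC, a pair of exchange factors for the small GTPase Rap. Rapgef4 was below 1 RPKM at 0.422 RPKM, and Rapgef3, on 3 rows, was unresolved at 0.0349 RPKM. Their substrates Rap1a, at 139 RPKM, and Rap1b, at 267 RPKM, were above. Of 11 anchors that do not carry the Akap name, 6 were above and 3 below, with Acbd3, a Golgi anchor, at 104 ± 4.23 RPKM, against 114 ± 9.45 RPKM for Akap12.

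Pde5a acts on cyclic GMP. Of 9 genes for the synthesis of that messenger, natriuretic peptide receptors and its kinases, 3 were above 1 RPKM. These were the kinases Prkg1 at 18.6 RPKM and Prkg2 at 17.6 RPKM, and Npr2, the receptor for C-type natriuretic peptide, at 3.61 RPKM. Gucy1b3, on 2 rows, was at 0. None of 13 cyclic nucleotide channel and Popeye genes was above, against 43.2% of all symbols tested, and 8 were below, against 13.4%. Of 4 genes for export of cyclic AMP and its breakdown outside the cell, 3 were above, which were Nt5e at 11.6 RPKM, Abcc5 at 6.86 RPKM and Enpp1 at 3.08 RPKM, and Abcc4 on 3 rows was at 0.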

How the data were processed

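Gene-level RNA was measured in 3 libraries of 1 group. The authors deposited whole-number values per transcript row, used here as raw counts; the files name the unit RPKM, but the values sum to 35195518 to 45240005 per library, so all RPKM values here depend on reading them as counts. TopHat and the build mm9 are named, per the submitters' processing notes, with no version. How reads were counted, on which annotation and with what use of strand, is not given in the sources used here, so reads from a gene and an antisense partner cannot be told apart.

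Rows were summed per symbol. Lengths were the median over basic transcripts of GENCODE M21 (GRCm38), found for 23048 symbols (20840 directly, 2208 by RefSeq synonym) and for all 54 members. RPKM used the total of all rows. Symbols with at least 1 count were tested two-sided against 1 RPKM with edgeR 4.0.16 (R 4.3.3), adjusted by Benjamini-Hochberg with calls under 0.05. The single-coefficient F statistic was computed from the quasi-likelihood fit, with a Poisson bound on p, and was tested on simulated data. DESeq2 1.42.0, limma 3.58.1, other lengths, scalings, filters and thresholds, and leaving out each library were alternatives.

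PKA subunits, the 5 cyclases, 10 phosphodiesterases and 8 anchors highest among symbols with 1 row, called members with several rows and the 5 most variable members are given by library. Members and lists were chosen with earlier results of these data known. The classes of enzymes and anchors, ratios other than regulatory over catalytic, and the promoter search were chosen after the values were seen. Intervals cover counting error only. The result of 1 marker list is not reported here.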

Additional observations from a re-analysis of the deposited data

How the results depend on the processing

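The 24 calls above 1 RPKM numbered 22 to 24 under all alternatives, including 23 to 24 with 1 library left out. The 17 calls below 1 RPKM were less stable: they numbered 5 to 17 with 1 library left out, 5 against 0.5 RPKM, 11 with the shortest transcript and 24 with limma. DESeq2, run as listed with the expected counts as normalization factors and its default settings, called 22 members above and 1 below, which was none of the 17; over all symbols it called 7472 above and 268 below. A second DESeq2 run, with centred factors and no independent filtering, was added after that outcome had been seen and called 24 above and 24 below; it does not replace the first, and the cause of the gap was not tested. Against 0.5 RPKM, the log2 level of Prkacb turned to 0.52, and against 2 RPKM that of Prkar1b turned to -0.3. With the shortest and the longest transcript, the log2 ratio of regulatory over catalytic subunits was 3.42 and 2.34, the share of Adcy6 76.6% and 68.8%, of Pde7b 38.3% and 26.7%, of Prkar1a 80.1% and 68.2%, and of Akap12 29.4% and 39.8%; the mean over rows gave Pde7b 43.3%. The log2 ratio of Pde4d over Pde3b became -0.027 with the longest transcript, and with the shortest that of Akap11 over Akap7 became -0.14 and that of Akap8 over Akap10 became -0.1. Length enters each of these values directly. Of 525 levels of 35 named members under alternatives, 467 kept their direction and call. No paired analysis was possible because the files hold only 1 group. Low counts limit the members under 1 RPKM, several of which rest on fewer than 10 counts in a library. Rows at 0 numbered 9329, 8491 and 10634 in replicates 1, 2 and 3, and members at 0 numbered 8, 5 and 9. Replicate 3 thus had the most zeros although it was the deepest library, and why was not tested.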
